A study of Homo sapiens with 2 samples.

Results

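The transcription factor p53 is activated by DNA damage and other stress, and it switches on genes that stop the cell cycle, repair damage or kill the cell. In unstressed cells its protein is kept scarce by MDM2, a ubiquitin ligase that p53 itself induces, together with the MDM2 relative MDM4. Human embryonic stem cells divide quickly, with a short G1 phase, and are known to die readily after DNA damage, so the resting level of this pathway is of interest there. Described here are 9 genes of the pathway, MDM2 and MDM4 as regulators and CDKN1A, SESN1, RRM2B, GDF15, FAS, ZMAT3 and TP53INP1 as targets. They were chosen by name from the 25436 gene symbols of an expression table, and all 9 reached a mean of 1 FPKM (fragments per kilobase of transcript, relative to the mapped fragments of the library).

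Polyadenylated RNA was sequenced from 1 library each of HuES53 and HuES64, which are human embryonic stem cell lines. The labels describe both as diploid, undifferentiated controls from embryos made by in vitro fertilization, kept below passage 20, and no treatment is named. With 1 library per line there is no replicate error and no p-value, and every difference describes these 2 libraries. A difference is given as log2(FPKM + 1) in HuES53 minus that in HuES64, and a fold is taken on that same scale, which understates the change of low genes. The 6 pluripotent stem cell markers summed to 2936 FPKM in HuES53 and 2939 in HuES64, none of them at 0. Differences in both directions lie under these sums, with 3 of the 6 higher in each line. POU5F1 stood at 1053 and 1381 FPKM, DNMT3B at 521 and 376, and TDGF1 at 723 and 528. The 5 neural markers summed to 1.89 and 1.18 FPKM, the 5 endoderm markers to 47.3 and 35.7, and the 8 fibroblast markers to 215 and 231. Of the endoderm markers 4 were higher in HuES53 and 1 in HuES64, with AFP over 2-fold higher in HuES53 (7.25 and 1.53 FPKM). Of the fibroblast markers 3 were higher in HuES53 and 5 in HuES64, with COL3A1 over 2-fold higher in HuES64 (3.08 and 8.00 FPKM). Most of the fibroblast sum came from COL1A1 (138 and 168 FPKM) and COL1A2 (66.5 and 46.7 FPKM). The part of these markers in the results was not tested.

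Start regions of these genes are shown first, because p53 acts on its targets by binding DNA, at some genes close to a start. RefSeq windows (GRCh38.p14) from 250 bases before to 50 bases after a transcription start were at hand for 7 of the 9 genes, 15 windows in all. RRM2B and TP53INP1 had none. Each window was searched on both strands for the p53 consensus site, 20 bases made of 2 adjacent copies of the same 10-base unit, with up to 3 mismatches. The site reads the same on both strands. Such a match was present in 5 of the 15 windows, in 4 of the 7 genes, and in 5.20% of all 35116 windows. Near-identical starts of MDM2 share their matches, and the genes had been listed as known p53 targets, so these counts are no independent evidence. The matches are printed 5′ to 3′, with capitals for the bases that fit the consensus.
MDM2, first match: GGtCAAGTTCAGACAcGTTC
MDM2, next match: AGttAAGTCCtGACTTGTCT
FAS: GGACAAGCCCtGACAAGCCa
SESN1: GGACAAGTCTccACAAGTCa
GDF15: AGcCATGCCCGGGCAAGaaC

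The MDM2 matches, with 2 and 3 mismatches, began 94 and 56 bases before an internal start of the gene, at chr12:68808923-68808942 and chr12:68808961-68808980 on the plus strand. The FAS match had 2 mismatches and lay at chr10:88991309-88991328, 122 bases before an internal start. There GENCODE release 29, on the same assembly, has first exons of non-coding FAS transcripts and, on the other strand, an untranslated first exon of ACTA2. In SESN1 the match had 3 mismatches and began 49 bases before the most downstream of its starts, at chr6:109009018-109009037 on the minus strand. The GDF15 match, also with 3 mismatches, began 28 bases after the start, at chr19:18386186-18386205. With at most 2 mismatches the site was found in 0.649% of all windows, and among the genes here in MDM2 (2 of 4 windows) and FAS (1 of 3) alone. No match was found in the windows of CDKN1A, MDM4 and ZMAT3, which says only that these letters are not in those windows.

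The regions before the internal MDM2 start and the downstream SESN1 start are printed in full to show the matches in place, in capitals. Both lie inside their gene and hold no annotated untranslated part of an exon. Other kinds of exon were not looked up. The MDM2 region spans chr12:68808767-68809001 on the plus strand, cut short before an annotated untranslated part of an exon. The SESN1 region spans chr6:109008989-109009238 on the minus strand.
MDM2: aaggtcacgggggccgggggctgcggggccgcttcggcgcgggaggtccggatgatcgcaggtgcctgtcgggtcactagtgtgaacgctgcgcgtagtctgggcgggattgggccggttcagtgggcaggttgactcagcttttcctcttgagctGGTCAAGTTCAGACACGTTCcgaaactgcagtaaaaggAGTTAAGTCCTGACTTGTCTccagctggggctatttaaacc
SESN1: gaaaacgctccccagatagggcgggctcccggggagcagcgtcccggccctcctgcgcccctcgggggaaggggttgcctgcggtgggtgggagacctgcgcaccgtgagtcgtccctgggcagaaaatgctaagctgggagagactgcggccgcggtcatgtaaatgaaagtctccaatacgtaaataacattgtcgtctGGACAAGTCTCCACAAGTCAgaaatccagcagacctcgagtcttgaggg

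The table gives 1 value per gene, so transcripts from different starts of MDM2 or SESN1 cannot be told apart in it. The GC box GGGCGG, on either strand, was in all 4 windows of MDM2, all 3 of SESN1 and all 3 of FAS. It was also in 1 of 2 windows of ZMAT3 and in the 1 window each of CDKN1A and GDF15, but not in that of MDM4. Of all windows 44.95% held it. TATAAA, on either strand, was present only in the 1 window of GDF15, and in 11.5% of all windows.

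RRM2B had the widest gap between the lines among the 9 genes, followed by TP53INP1 and CDKN1A. None of the 9 was at least 2-fold different, a size reached by 3.86% of the 13790 genes whose mean reached 1 FPKM, called the genes tested below. Against that share a count of 0 among 9 genes does not set them apart. At least 1.5-fold higher in HuES53 was RRM2B alone, against 9.22% of all these genes, and none of the 9 was at least 1.5-fold higher in HuES64, against 7.84%. The size of 1.5-fold was chosen after the values had been seen. Of the 9 genes 5 were higher in HuES53 and 4 in HuES64, with a median difference of 0.04, beside 0.03 over all genes tested. The absolute difference of 6 of the 9 was under the median absolute difference of all genes, 0.29, and that of RRM2B, TP53INP1 and CDKN1A was over it.

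**Figure D1:**
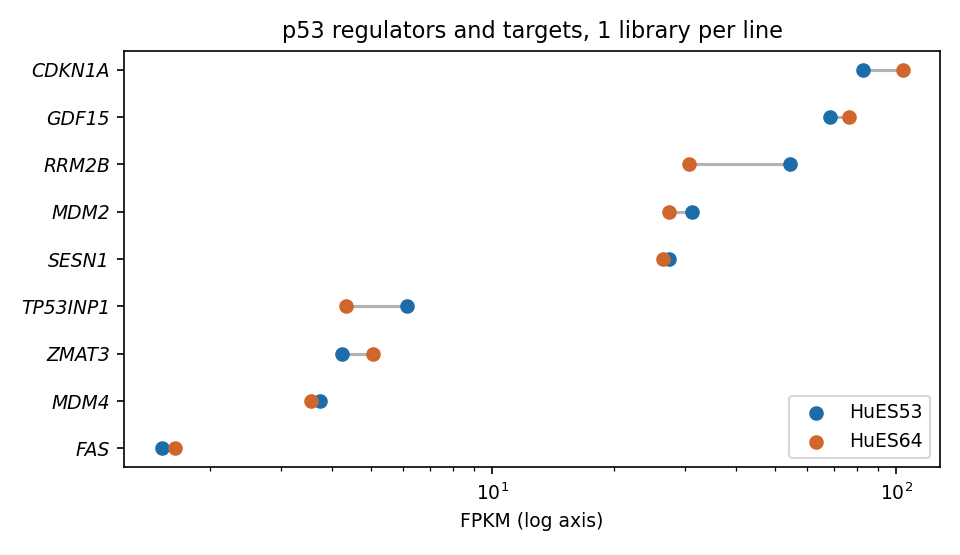
FPKM of the 9 genes on a log axis, 1 point per library, blue for HuES53 and orange for HuES64. CDKN1A was highest (83.0 and 104 FPKM) and FAS lowest (1.51 and 1.64 FPKM), and the widest gap is that of RRM2B (54.5 and 30.6 FPKM).

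MDM2, the ubiquitin ligase, had a level of 31.2 FPKM in HuES53 against 27.3 in HuES64, a difference of 0.19. This was above 76.8% of the genes tested in HuES53 and above 73.9% in HuES64. MDM4, which binds p53 and pairs with MDM2, was much lower, at 3.74 and 3.55 FPKM. Within a line MDM2 exceeded MDM4 8.35-fold in HuES53 and 7.71-fold in HuES64. Of all genes tested 88.5% differed more than MDM4 did. In the deposited table MDM2 lies at chr12:69201971-69239212 and MDM4 at chr1:204485507-204527248. These are positions in the build of the table, which is not given in the sources used here.

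CDKN1A, which encodes the cyclin-dependent kinase inhibitor p21, was the highest of the 9 genes in both lines. Its value was 83.0 FPKM in HuES53, against 104 in HuES64, a difference of -0.32 (1.25-fold), and exceeded 91.1% and 92.2% of the genes tested. Its relatives were lower, CDKN1B (p27) at 24.7 and 19.7 FPKM and CDKN1C (p57) at 14.0 and 20.0. CDKN1A exceeded CDKN1B 3.35-fold in HuES53 and 5.27-fold in HuES64, since the genes leaned in opposite directions. The ratio of CDKN1A to MDM2 was 2.66 in HuES53 and 3.798 in HuES64. The CDKN1A locus is chr6:36644237-36655116 in the table and overlaps no other gene there.

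RRM2B showed the largest difference of the 9. It encodes a small subunit of ribonucleotide reductase that supplies DNA building blocks for repair and for mitochondrial DNA. Its level was 54.5 FPKM in HuES53 and 30.6 in HuES64, a difference of 0.81 (1.76-fold), and 7.42% of all genes tested differed more. The other subunits differed less, RRM2 at 47.6 and 37.1 FPKM and RRM1 at 50.9 and 45.3. As a result RRM2B stood above RRM2 in HuES53 (1.14 times) and below it in HuES64 (0.824 times).

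All 8 genes tested within 1 Mb of RRM2B on chromosome 8 were also higher in HuES53, with a median difference of 0.29, and none of them had a difference as high as RRM2B. Over all 470 genes tested on that chromosome besides RRM2B, these neighbours included, the median was 0.08. TP53INP1, the other gene here from chromosome 8, encodes a stress-induced protein with roles in autophagy and cell death. It stood at 6.14 and 4.33 FPKM, a difference of 0.42, and of its 11 neighbours 9 were higher in HuES53. Its relative TP53INP2 stood at 4.91 and 4.23 FPKM. Of all genes tested, 52.5% were higher in HuES53. Neighbours leaned the way of the gene around MDM2, with 10 of 11 higher in HuES53, and around GDF15, with 45 of 58 higher in HuES64. They leaned against it around FAS (8 of 9 higher in HuES53), CDKN1A (12 of 19) and ZMAT3 (6 of 9), all of which were themselves higher in HuES64. Around MDM4, itself higher in HuES53, 10 of 19 neighbours were higher in HuES64, and around SESN1 the split was 5 and 5. Over the other genes tested on the whole chromosome the median was -0.14 for chromosome 19, which holds GDF15, and 0.02 for chromosome 12, which holds MDM2. The part of the neighbourhood in these values was not tested.

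GDF15, a secreted stress cytokine, was the second highest of the 9 genes, at 68.5 FPKM in HuES53 and 76.3 in HuES64 (a difference of -0.15). Its receptor gene GFRAL, known from the brainstem, was listed at 0 in both lines. The GDF15 locus overlaps LOC100653010, at 27.4 and 32.2 FPKM, and the strand setting of the counting is not given, so fragments of the overlap cannot be assigned. SESN1, a stress-induced inhibitor of mTORC1 signalling, was nearly level at 27.3 and 26.5 FPKM, and 92.0% of all genes tested differed more. Of the other sestrins, SESN2 stood at 20.4 and 17.7 FPKM and SESN3 at 3.08 and 2.26.

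FAS and ZMAT3 were low in both lines. The death receptor gene FAS had 1.51 FPKM in HuES53, against 1.64 in HuES64, above only 6.29% and 9.31% of the genes tested. CDKN1A exceeded it 54.8-fold and 63.3-fold in the same libraries. The FAS locus overlaps ACTA2 (11.5 and 9.10 FPKM), so part of even this low value could not be assigned to a gene. The FAS ligand gene FASLG was listed at 0 in both lines. The receptor's intracellular partners were higher than FAS, the adaptor gene FADD at 29.6 and 37.1 FPKM and the initiator caspase gene CASP8 at 5.30 and 4.17. ZMAT3, a zinc finger protein that binds RNA, stood at 4.24 and 5.07 FPKM. Among its relatives ZMAT2 was highest, at 67.6 and 77.8 FPKM, followed by ZMAT5 (17.1 and 21.5), ZMAT4 (8.59 and 7.94) and ZMAT1 (1.477 and 1.501).

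**Figure D2:**
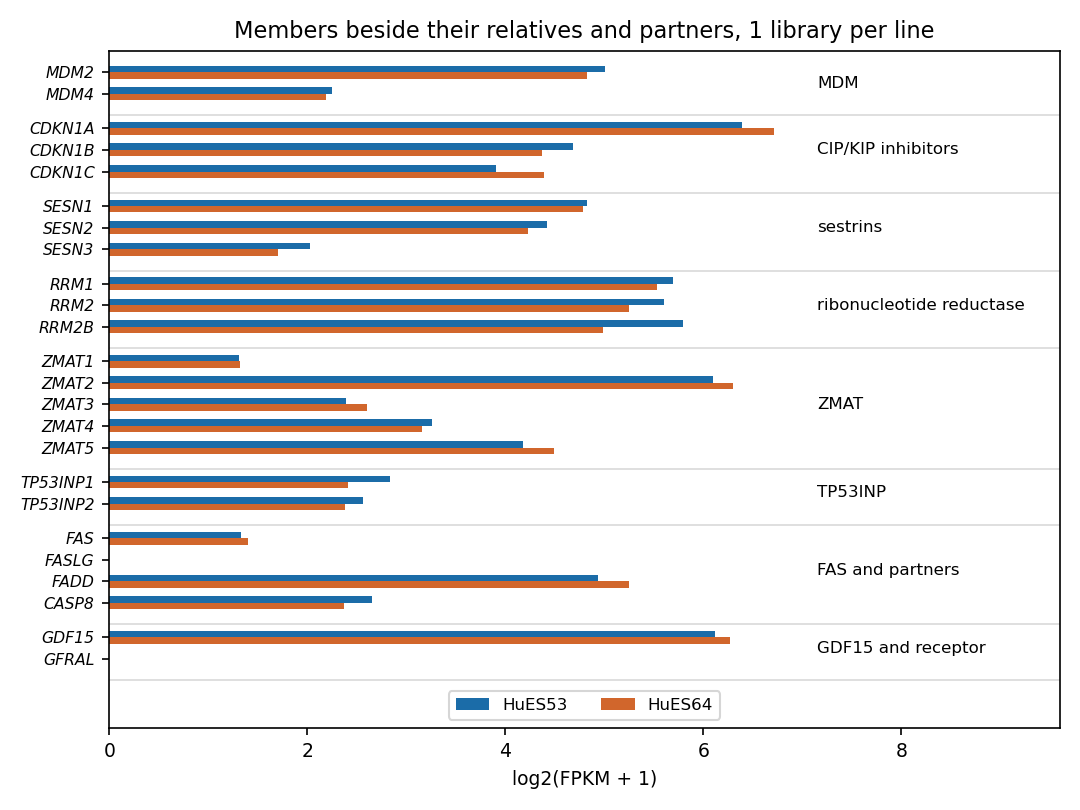
Level of each of the 9 genes beside relatives or partners, as log2(FPKM + 1), with a blue bar for HuES53 and an orange bar for HuES64, 1 library each. MDM2 stands above MDM4 and CDKN1A above CDKN1B and CDKN1C in both lines, whereas RRM2B is above RRM2 in HuES53 only; FASLG and GFRAL are listed at 0.

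The order of the 9 genes by level was almost the same in the lines. From high to low it ran CDKN1A, GDF15, RRM2B, MDM2, SESN1 in both, then TP53INP1 and ZMAT3, which changed places, then MDM4 and FAS. Steps in the lowest values put the depth at about 18.5 fragments per FPKM and kilobase in HuES53 and 15.2 in HuES64, for an assumed fragment length of 200 bases. Over 1 kb of transcript FAS then rests on 28 and 25 fragments, and its ratio of HuES53 to HuES64 has a 95% counting interval of 0.515 to 1.64 (exact Clopper-Pearson). For RRM2B, with 1010 and 465 fragments over 1 kb, the interval is 1.59 to 1.99. For TP53INP1 it is 1.04 to 1.95, and for MDM4 0.722 to 1.52. The intervals of SESN1 (0.904 to 1.18) and ZMAT3 (0.606 to 1.16) also hold 1, so a difference in these genes, MDM4 or FAS was not detectable at this depth over 1 kb. Those of MDM2 (1.008 to 1.30), CDKN1A (0.745 to 0.859) and GDF15 (0.828 to 0.973) do not hold 1, that of MDM2 by little. A longer transcript holds more fragments and has a narrower interval, and a shorter one the reverse. These intervals cover counting error only, not the variation between cultures, which 1 library per line does not measure.

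The differences in the rest of the pathway ran from -0.76 for CDKN2A to 0.63 for EP300. A list of 58 further genes in 6 groups was set beside the 9, and 56 of them reached a mean of 1 FPKM. None of the 56 was at least 2-fold different, beside the 3.86% of all genes, and their median difference was 0.02. Of the 56, 29 were higher in HuES53 and 27 in HuES64. On the log2(FPKM + 1) scale EP300 was the 1 gene of the 56 at least 1.5-fold higher in HuES53 (9.22% of all genes), and CDKN2A, PPP1R13L and RPL11 were at least 1.5-fold higher in HuES64 (7.84% of all genes). Without the pseudocount, the ratio of HuES53 to HuES64 also passed 1.5 for HIPK2 (1.68), PPP1R13B (1.94) and PPM1D (1.51). The genes outside the 56 were TP63, a p53 relative of epithelia, at 0.0758 FPKM in HuES53 but at 0 in the HuES64 column, and TP53AIP1, listed at 0 in both.

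**Figure D3:**
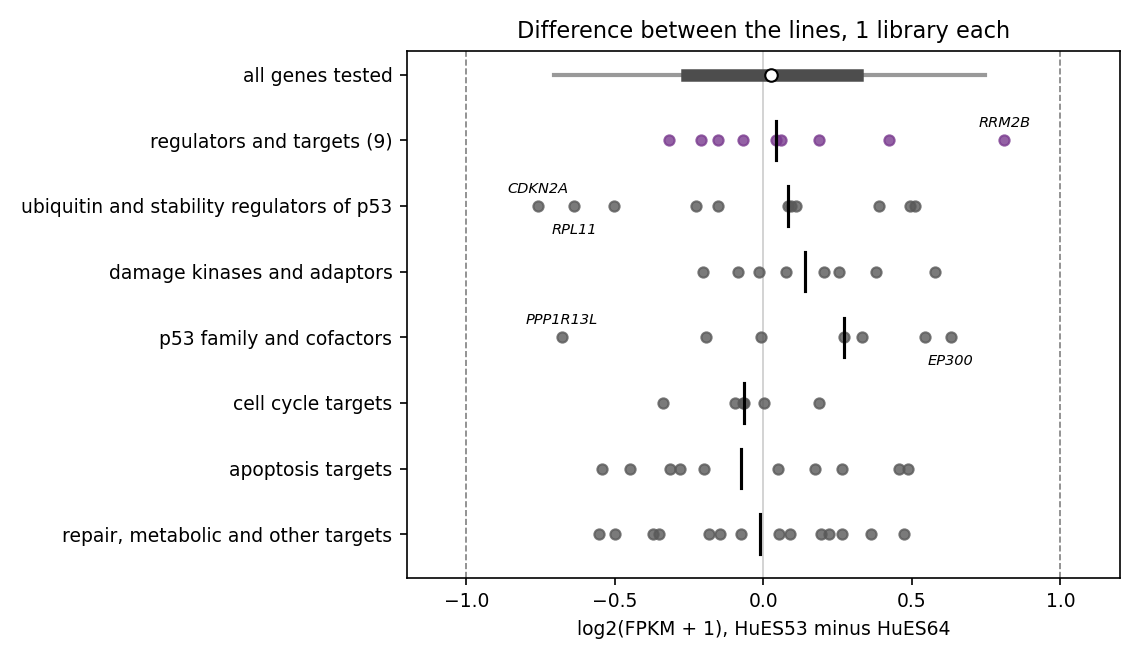
Differences in log2(FPKM + 1), HuES53 minus HuES64, of single genes (points), with the group median (black stroke), for the 9 genes and the 6 further groups. The top row gives the middle of all 13790 genes tested (thick bar, quartiles; thin bar, 5th to 95th percentile, -0.70 to 0.75), and no point reaches the dashed lines at 2-fold.

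Among regulators of p53 stability, the largest difference was that of CDKN2A, whose locus encodes ARF, an inhibitor of MDM2, as well as the kinase inhibitor p16. It was read at 2.99 FPKM in HuES53, against 5.76 in HuES64, a difference of -0.76, and overlaps C9orf53. The ribosomal protein genes RPL11 (2667 and 4147 FPKM) and RPL5 (689 and 976 FPKM), whose free proteins bind MDM2, were higher in HuES64 too. Of the 11 genes in this group 6 were higher in HuES53, and the median was 0.08. In the group of damage kinases and adaptors the median was 0.14 over 8 genes, 5 of them higher in HuES53. The checkpoint kinase genes CHEK2 (59.3 and 60.0 FPKM) and CHEK1 (38.8 and 36.8 FPKM) were its highest members and nearly level. HIPK2, a kinase that phosphorylates p53, stood at 4.50 and 2.69 FPKM, and ATR, which responds to stalled replication, at 4.08 and 2.90. The 7 tested genes of the p53 family and its cofactors had a median of 0.27. EP300, a histone acetyltransferase that acts with p53, stood at 19.8 and 12.4 FPKM, and the acetyltransferase gene KAT5 at 16.7 and 19.2. PPP1R13L, which encodes the p53 inhibitor iASPP, stood at 7.01 and 11.8 FPKM.

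Further targets of p53 lay at widely different levels, and none of the 30 tested was 1.5-fold different on the log2(FPKM + 1) scale, beside 9.22% of all genes in one direction and 7.84% in the other. Among the 6 cell cycle targets the median was -0.07, with CCNG1, a cyclin induced by p53, at 270 FPKM in HuES53 and 289 in HuES64. GADD45A stood at 30.48 and 31.99 FPKM, SFN, the 14-3-3 sigma gene, at 10.9 and 14.0, and PLK2 at 19.8 and 17.2. The 10 tested apoptosis targets had a median of -0.08, with 5 higher in each line. BAX, which permeabilises the mitochondrial membrane, was high, at 309 and 422 FPKM, as was PMAIP1, the gene of the BH3-only protein NOXA, at 246 and 175. The ratio of BAX to FAS was 204 in HuES53 and 257 in HuES64. PIDD, a death domain protein gene, stood at 14.9 and 22.1 FPKM. Of the 14 repair, metabolic and other targets 7 were higher in each line, with a median of -0.01. RPS27L led them, at 119 and 154 FPKM, followed by TRIAP1 at 86.3 and 98.2. FDXR, a mitochondrial reductase gene, stood at 51.8 and 76.5 FPKM and PHLDA3, an inhibitor of AKT, at 52.3 and 74.5.

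Differences between these libraries followed the GC content of the transcripts. Over all genes with a reference transcript the median difference fell from 0.32 in the tenth lowest in GC (38.7% GC) to -0.30 in the tenth highest (64.5%). The 3 genes here with over 50% GC, CDKN1A, GDF15 and ZMAT3, were all higher in HuES64, and of the 6 others 5 were higher in HuES53. Over all genes tested with over 50% GC, 4044 of 6166 were higher in HuES64. Among those with up to 50% GC, 4285 of 5750 were higher in HuES53, so the 9 genes lean the way of all genes. Spearman's rho of difference on GC content was -0.85 across the 9 genes and -0.37 across 53 further pathway genes, given as a description since all points come from the same libraries. With the trend in GC content and transcript length removed, RRM2B kept a difference of 0.69, CDKN1A had -0.20 and MDM2 0.07. TP53INP1 then stood at -0.002, and MDM4 (-0.39) and SESN1 (-0.26) changed direction, as did GDF15 (0.19). The median of the 9 was -0.20 after this step, with 3 higher in HuES53 and 6 in HuES64. Of the 53 further pathway genes with a GC value 22 were then higher in HuES53 and 31 in HuES64, and the medians of the kinases and the stability regulators changed sign. The damage kinases and adaptors had a median of -0.06 (2 higher in HuES53 and 6 in HuES64), the stability regulators -0.16 (5 in each line), and the repair, metabolic and other targets -0.18 (3 and 10). The apoptosis targets stood at 0.003 (5 and 4), the cell cycle targets at -0.03 (2 and 4), and the p53 family and cofactors stayed above 0, at 0.23 (5 and 2). The apoptosis targets lost PIDD (-0.54), which had no GC value. In the 9 left, AEN, at 0.05, was the middle gene before the step, so their median was above 0 already.

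**Figure D4:**
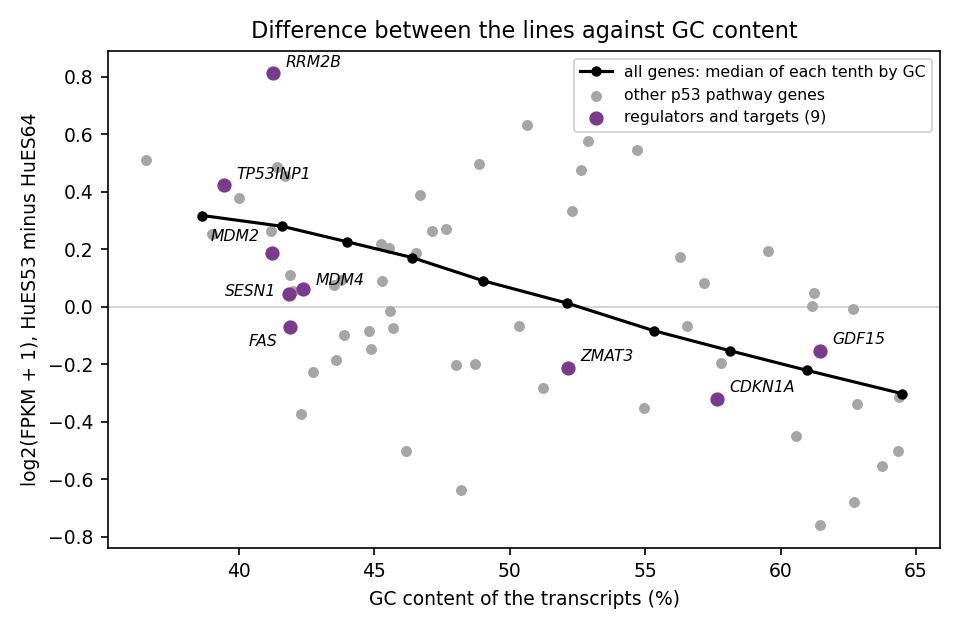
Difference in log2(FPKM + 1), HuES53 minus HuES64, against the GC content of each gene's transcripts in percent; purple points are the 9 genes, grey points the other pathway genes, and the black line joins the medians of 10 equal groups of all genes. The line falls from 0.32 to -0.30, and RRM2B (0.81) lies well above it.

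Scaling each library by its FPKM sum (TPM scaling) moved the median of all genes from 0.03 to 0.25. RRM2B then passed 2-fold, with a difference of 1.06, a size reached by 6.54% of all genes tested under that scaling. The counts higher in HuES53 and HuES64 became 7 and 2 for the 9 genes, and 43 and 13 for the 56 further genes. GDF15 (0.09) and FAS (0.09) changed direction with it, while CDKN1A (-0.08) did not. Relative to all genes the median of the 9 was 0.02 both before and after. With every one of the 9 alternatives tried, RRM2B was the gene with the largest difference of the 9, between 0.69 and 1.06.

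**Figure D5:**
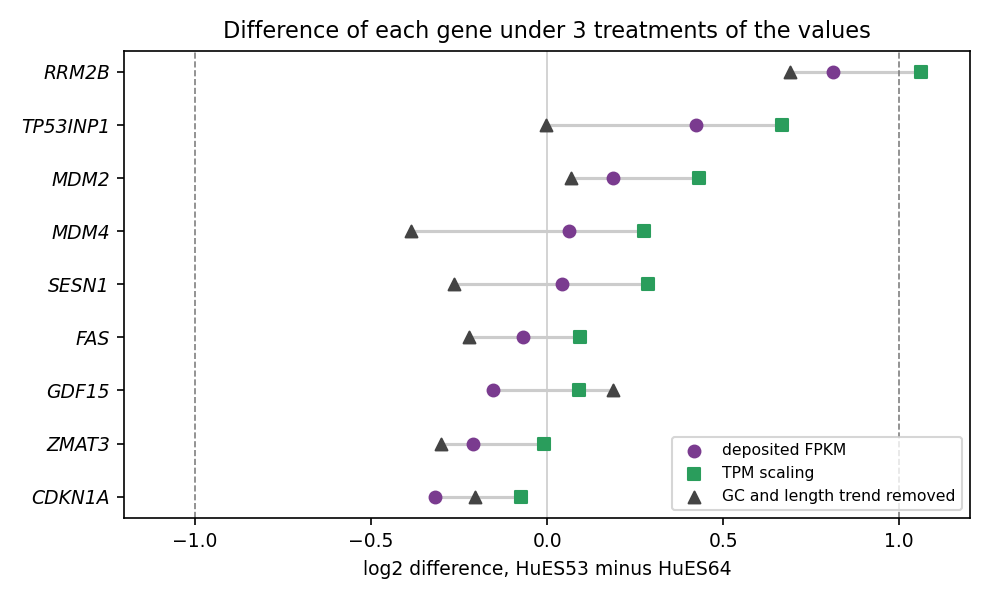
Log2 difference, HuES53 minus HuES64, of each of the 9 genes with the deposited FPKM (circles), after TPM scaling (squares) and after removal of the GC and length trend (triangles); dashed lines mark 2-fold. RRM2B lies at 0.81, 1.06 and 0.69, whereas MDM4, SESN1, GDF15, FAS and TP53INP1 have values on both sides of 0.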

How the data were processed

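The authors deposited 1 table of FPKM values with 25593 rows, a gene symbol, a locus and 1 column per line. Per the submitters' processing notes, TopHat2 2.0.4 and Cufflinks 2.0.2 were used, without their roles; for the build, annotation, strand setting and filters, nothing is stated in the sources used here. Loci count from 0, as 1286 of 1313 microRNA genes had their annotated length on that reading, and are printed counting from 1. The 136 rows of chromosome Y were left out and rows of 21 repeated symbols summed. Differences, with a pseudocount of 1 FPKM, were computed for all genes whose mean reached 1 FPKM in Python 3.11.15 with pandas 2.3.3, and the calculation was tested on simulated data. FPKM are not counts and each line has 1 library, so no test was made. GC content and length were medians over the transcripts of GENCODE release 29, matched by symbol for 86.4% of genes, and their trend was removed in 20 bins each over 5 rounds. Only protein-coding transcripts were used where a gene had any, short ones included, which gave a length of 798 bases for MDM2 and 9252.5 for MDM4. Which transcripts were present in the libraries is not known, so the bin of a gene, and its value after this step, may be off. Depth was estimated from olfactory receptor genes with loci under 1100 bases, where 16 of 20 HuES53 values and 9 of 11 HuES64 values lay within 0.03 of a whole fragment, for a step fitted to these values. The 9 genes and all lists were chosen with earlier results of these data known. All of the 9 genes and their relatives are named, and of each further group the 2 highest genes, the 2 with the largest difference and any at 2-fold. Genes at 1.5-fold, TP63 and TP53AIP1 are named in addition. The gene of p53 itself was not analysed here.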

Additional observations from a re-analysis of the deposited data

How the results depend on the processing

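Under a smaller pseudocount (0.1 or 0.5 FPKM), without the filter or with it set at 5 FPKM, under upper quartile or median of ratios scaling, and with the highest row of a repeated symbol, none of the 9 genes and none of the further pathway genes reached 2-fold, and the medians of both moved by no more than 0.1 on the log2 scale. In these settings the share of all genes at 2-fold ran from 2.32% (no filter) to 7.18% (pseudocount of 0.1 FPKM). With TPM scaling the median of the 9 genes was 0.28 and that of the further genes 0.25. RRM2B, 1 of the 9, then reached 2-fold, beside 6.54% of all genes. Removal of the trend in GC and length gave the 9 a median of -0.20. At a 1.5-fold threshold, chosen after seeing the data, 1 of the 9 and 4 further genes passed. Of all genes tested 9.22% were that much higher in HuES53 and 7.84% in HuES64. The direction of MDM2, CDKN1A, RRM2B and ZMAT3 was the same under every alternative tried, though ZMAT3 was all but level with TPM scaling (-0.009). That of MDM4, SESN1 and TP53INP1 (-0.002) changed with the trend removed, that of FAS with TPM scaling and that of GDF15 with both. Why these values moved was not tested. The filter at 5 FPKM left 6 of the 9 genes and so gives no value for MDM4, FAS and ZMAT3. No paired analysis was possible because each line has 1 library. Of the 9 genes FAS has the fewest fragments per kilobase, 28 in HuES53 and 25 in HuES64.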
